A study of Mus musculus with 6 samples.

Results

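Transcripts of 10 enzymes that make and turn over sphingolipids were read from a series on fetal mouse lung. The enzymes are the serine palmitoyltransferase subunits Sptlc1 and Sptlc2, the ceramide synthases Cers2, Cers4, Cers5 and Cers6, the dihydroceramide desaturase Degs1, the glucosylceramide synthase Ugcg, the sphingomyelin synthase Sgms1 and the acid sphingomyelinase Smpd1. They were chosen by name, though with earlier results of these data known. Every array probe set whose only annotated gene was among the 10 was taken. This gave 26 probe sets of 45037, and 10 genes of 18193 that carried a single symbol. The series holds 6 MOE430 V2 arrays, short-oligonucleotide chips that read a whole transcriptome, each hybridised with RNA of whole lung at E18.5, shortly before birth. Of the samples, 3 lacked Scap in the epithelial cells of the airways and alveoli (named Scap d/d and referred to here as Scap-deleted) and 3 were controls. The strain of both groups was a mixture derived from FVB/N and B6 mice. The sources used here do not give the driver of the deletion or the alleles that the controls carried. The labels do not say whether each sample came from its own animal, so the spread behind every p-value may be technical.

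Sphingolipids are built on a long-chain base that serine palmitoyltransferase makes from serine and palmitoyl-CoA. Ceramide synthases attach a fatty acid to it, each with its own preference for chain length, and a desaturase turns the product into ceramide, which becomes sphingomyelin or glycosphingolipids. Sphingomyelin is a component of cell membranes and a minor lipid of lung surfactant, and acid sphingomyelinase returns it to ceramide in lysosomes. Scap escorts the SREBP transcription factors to the Golgi, where their release switches on sterol and fatty acid synthesis, and the palmitate that fatty acid synthesis yields is, once activated to palmitoyl-CoA, what serine palmitoyltransferase uses.

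The windows just upstream of the transcript starts show how far the letters known for SREBP binding are present at these genes. RefSeq promoters of GRCm38.p6 were found for all 10 genes, in 14 windows because Cers2 and Sgms1 have several starts. In the 250 bases before each start, on either strand, the sterol element TCACNCCAC matched 0 of the 14 windows, where 1.05% of all 32851 windows of the same length held it. The E-box CACGTG, which SREBP1 also binds, matched 3 windows, at Degs1, Cers6 and Cers2 (6.02% of all windows). The letters CCAAT of NF-Y were found in 6 of the 14 windows (33.8% of all windows) and GGGCGG of Sp1 in 9 (32.7%), both factors that work beside SREBPs. No matches overlapped. A match is only a match of letters, and no match says only that these letters are not in the window. The E-box windows are shown with that of Sptlc2, the member with the smallest p-value in the comparison described further on, written in the direction of transcription with matches to any of these motifs in capitals. They lie at chr1:182282196-182282445 (minus strand) for Degs1, chr2:68861191-68861440 (plus) for Cers6, chr3:95314940-95315189 (plus) for Cers2 and chr12:87388356-87388605 (minus) for Sptlc2.
Degs1: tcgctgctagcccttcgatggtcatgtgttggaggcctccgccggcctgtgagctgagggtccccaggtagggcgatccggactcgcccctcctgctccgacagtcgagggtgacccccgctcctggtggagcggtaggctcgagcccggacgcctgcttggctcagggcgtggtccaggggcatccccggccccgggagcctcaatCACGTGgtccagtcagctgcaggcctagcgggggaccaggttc
Cers6: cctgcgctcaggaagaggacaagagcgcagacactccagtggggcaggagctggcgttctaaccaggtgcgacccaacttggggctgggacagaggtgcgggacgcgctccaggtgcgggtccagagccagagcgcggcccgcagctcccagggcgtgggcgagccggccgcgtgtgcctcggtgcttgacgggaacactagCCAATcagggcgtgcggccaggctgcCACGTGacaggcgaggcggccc
Cers2: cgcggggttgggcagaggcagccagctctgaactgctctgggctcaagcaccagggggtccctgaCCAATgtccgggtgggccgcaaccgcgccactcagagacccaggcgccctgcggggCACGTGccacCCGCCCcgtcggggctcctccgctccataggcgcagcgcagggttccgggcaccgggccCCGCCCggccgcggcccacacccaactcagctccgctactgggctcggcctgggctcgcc
Sptlc2: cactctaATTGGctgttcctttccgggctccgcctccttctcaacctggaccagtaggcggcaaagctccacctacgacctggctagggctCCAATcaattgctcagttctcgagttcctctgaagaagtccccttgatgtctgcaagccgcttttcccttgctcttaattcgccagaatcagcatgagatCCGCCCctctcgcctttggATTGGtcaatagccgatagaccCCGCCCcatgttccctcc
In Degs1 the E-box was the only match, 43 to 38 bases before the start. Cers6 held an E-box at 22 to 17 bases before the start with a CCAAT further upstream, and Cers2 held an E-box, a CCAAT and 2 Sp1 matches. Sptlc2 held 3 NF-Y and 2 Sp1 matches and no E-box.

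Signals are in the linear units that the authors deposited, and each gene is read from its brightest probe set. Signals of different probe sets do not give relative amounts of transcript, so the sums over markers below only set arrays side by side. Genes were tested where the mean of that probe set, taken on the log2 scale over all arrays, lay above 497.8, the median of all probe sets. All 10 members and 10972 genes in all passed. Of the 26 member probe sets, 21 lay above it. Group levels given as a percent of control are ratios of geometric means, whereas means with an SD are of the linear signals. Array medians were 490.9 to 530.5. Of the alveolar type II marker list, 7 of 8 genes had a probe set and all 7 were above the limit, with a summed signal between 288104 and 365746 in controls and between 260016 and 316195 after deletion. Sftpc weighs most in that sum and stood at 100.6% of control. It read 80060 to 106271, while the highest signals of any probe set were 101398 to 128538 on the 6 arrays. Whether signals that high still follow the amount of transcript in proportion is not known here. Sftpa1 stood at 45.5% with no overlap of the groups, Abca3 at 63.9% and Sftpb at 76.5%. These 3 had unadjusted limma p-values below 0.05, where 5.92% of all genes tested did, and their adjusted p-values were 0.739, 0.739 and 0.801. Groups did not overlap, with Scap-deleted lower, in 5.72% of all genes tested. The other markers of the list, Sftpd at 90.1%, Slc34a2 at 91.7% and Napsa at 100.3%, overlapped between groups. None of 5 hepatocyte markers was above the brightness limit by its mean log2 signal. Alb nevertheless read 1800, 1048 and 219.1 in controls against 256.8, 132.8 and 260.5 in Scap-deleted lungs, and Apoa1 read 1213 in control 2. The summed hepatocyte signal ranged from 668.7 up to 2962 for controls, and from 465.8 up to 639.7 after deletion. Of 5 heart markers 4 were, and their sum was highest, at 56250, in Scap-deleted 1, where the atrial gene Nppa read 11125 against at most 350.4 elsewhere. The part of these marker lists in the results was not tested. The arrays numbered 3 in both groups stood apart from the others on the first principal component (36.6% of the variance). The deleted gene itself read 7264, 4195 and 3080 in controls and 1847, 3286 and 2702 in Scap-deleted lungs, so the groups overlapped (exact two-sided permutation p = 0.2). Its level was 55.9% of control (log2 difference -0.84, SE 0.33, limma unadjusted p = 0.0371 and adjusted p = 0.808). A dimmer Scap probe set, below the limit, read 75.6% with overlap. Other lung cells keep the gene, and where these probes lie relative to the deletion is not known here.

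None of the 10 sphingolipid enzymes passed the test for a difference between Scap-deleted and control lungs. Limma called 0 of the 10 members at an adjusted p of 0.05 (0.00911% of all genes tested were called) and 0 at an unadjusted p of 0.05 (5.92% of all genes). Members read 87.0% to 104.2% of control, 6 of them below and 4 above (48.3% of all genes were below), with a median log2 difference of -0.035 against 0.0051 for all genes tested. Their adjusted p-values ran from 0.852 to 0.999. The 95% intervals of the 10 genes, each from its brightest probe set, reached down to 69.9% of control and up to 138.6% (log2 differences of -0.52 and 0.47). Only for these probe sets do whole-lung differences beyond those bounds lie outside the intervals. Intervals of dimmer probe sets reached further, to -0.88 for 1454257_at of Sptlc2, -0.84 for 1426576_at of Sgms1 and 0.51 for 1447874_x_at of Smpd1. These intervals come from a fit without pairing. With the replicate number as a block, the intervals of the 10 genes reached from -0.47 (Degs1) to 0.31 (Sgms1). The block narrowed some, such as that of Sgms1 (-0.30 to 0.31), and widened others, such as that of Sptlc2 (-0.43 to 0.042). On the same arrays Scd1, the stearoyl-CoA desaturase induced by SREBPs, read 16.5% of control (log2 difference -2.60, SE 0.39, limma adjusted p = 0.319) and Fasn, the fatty acid synthase, 59.8% (log2 difference -0.74, SE 0.16, adjusted p = 0.671), so neither passed the test over all genes. Without Scap-deleted 2 the call for Scd1 was made (log2 difference -3.09, adjusted p = 0.0127). In whole lung, fewer cells of a type and less RNA per cell cannot be told apart, and transcripts of the epithelium are read together with those of all other cells.

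**Figure D1:**
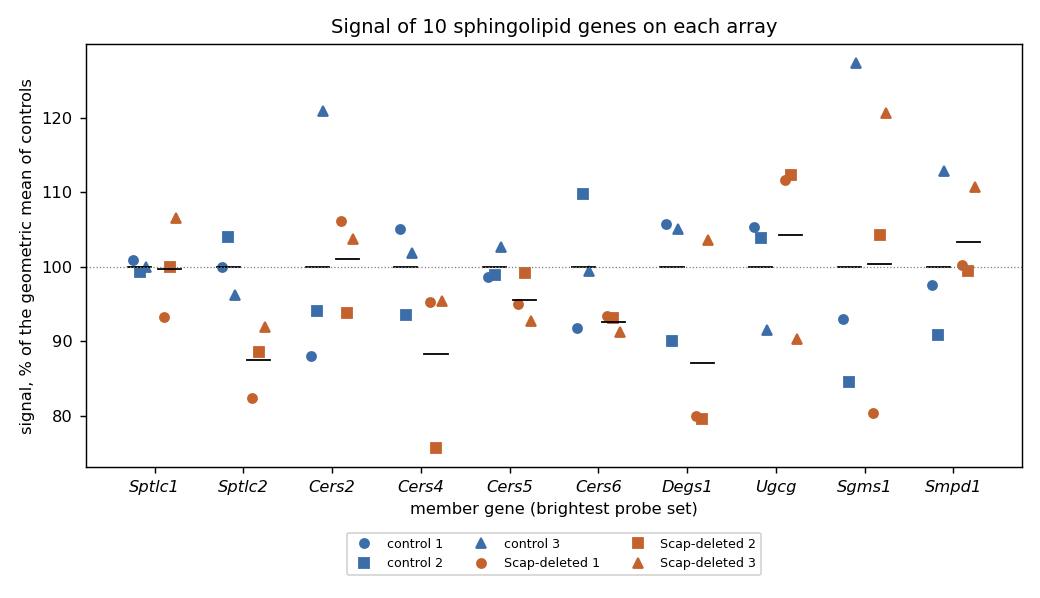
Signal of each of the 10 genes on each of the 6 arrays, as a percent of the geometric mean of the 3 controls (points; bars are geometric means of each group). Sptlc2 is the gene whose Scap-deleted arrays all lie below its control arrays, and Sgms1 spreads most within groups.

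The step that commits serine to the pathway was read by both subunits of serine palmitoyltransferase. Sptlc2, the subunit that carries the catalytic lysine, read 4892, 5092 and 4711 in controls 1 to 3 and 4031, 4334 and 4497 in Scap-deleted 1 to 3. Every Scap-deleted array was below every control, which held for 1 of the 10 members, while 5.72% of all genes tested showed it in this direction. In the other direction it held for 0 members and 6.11% of all genes. The means were 4898 ± 191 and 4287 ± 236 (SD, n = 3), 87.5% of control with a 95% interval of 75.4% to 101.5% (log2 difference -0.19, SE 0.092, limma adjusted p = 0.852). By exact two-sided permutation p was 0.1, the floor for 3 against 3 arrays, and the unadjusted limma p was 0.0713. The other probe sets of Sptlc2 pointed the same way, 1460243_at at 92.9% of control with no overlap of the groups and 1454257_at at 76.7% with overlap, and neither passed the test over probe sets (adjusted p = 0.956 and 0.940).

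Sptlc1, the partner subunit without which the enzyme has no activity, read 4373, 4301 and 4329 in controls and 4039, 4330 and 4616 in Scap-deleted lungs. The groups had almost the same mean, 4334 ± 36.1 and 4328 ± 288 (SD, n = 3), and the 3 controls lay inside the range of the 3 Scap-deleted arrays. This is 99.7% of control with an interval of 86.0% to 115.7%. The dimmer probe set 1436726_s_at read 95.8%, and the remaining 2 were below the brightness limit.

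The ceramide synthases differ in the acyl chains they use, Cers2 for very long chains, Cers4 for long to very long ones, and Cers5 and Cers6 for chains such as palmitate, the last 2 closely related. Cers2 read 7947, 8493 and 10915 in controls and 9588, 8465 and 9362 in Scap-deleted lungs. Control 3 was the highest array and the groups overlapped, with means of 9118 ± 1580 and 9138 ± 594 and 101.0% of control (interval 80.9% to 126.2%). The value moved with single arrays, from a log2 difference of -0.077 without control 1 to 0.15 without control 3, none of them past the test.

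Cers4 read 2220, 1978 and 2154 in controls and 2013, 1600 and 2016 in Scap-deleted lungs. Scap-deleted 2 was the lowest array, and the other Scap-deleted arrays lay just above the lowest control. The gene stood at 88.2% of control (interval 72.5% to 107.3%, limma adjusted p = 0.899), and without Scap-deleted 2 its log2 difference was -0.070. Its probe set 1417781_at gave a larger difference, with 1822, 1599 and 1730 in controls and 1477, 1226 and 1392 in Scap-deleted lungs. Here every Scap-deleted array was below every control, and the level was 79.4% of control (log2 difference -0.33 with an SE of 0.12, limma adjusted p = 0.913 over 22518 probe sets). The unadjusted limma p was 0.0225 and the exact two-sided permutation p was 0.1. This was the only 1 of the 21 member probe sets above the brightness limit with an unadjusted p below 0.05, where 5.24% of all probe sets were. Groups did not overlap, with Scap-deleted lower, in 3 of the 21, the other 2 being those of Sptlc2, where 5.23% of all probe sets did so. With Scap-deleted higher it was 0 of the 21 against 5.3% of all probe sets. The third probe set of Cers4 was below the limit and read 93.1%.

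Cers5 read 6196, 6209 and 6445 in controls and 5964, 6225 and 5823 in Scap-deleted lungs, the narrowest within-group spread of the 10 genes. Scap-deleted 2 lay among the controls and the other 2 below them, and the gene stood at 95.5% of control with an interval of 83.2% to 109.7%. Cers6 read 2444, 2925 and 2650 in controls and 2489, 2481 and 2431 in Scap-deleted lungs. The Scap-deleted arrays were close together, at 2467 ± 31.8, within or just below the control range, and the gene stood at 92.5% of control (interval 78.8% to 108.6%).

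Degs1, which inserts the double bond that makes ceramide from dihydroceramide, had the lowest percent of control of the 10. It read 11169, 9512 and 11104 in controls and 8453, 8405 and 10935 in Scap-deleted lungs. Scap-deleted 1 and 2 lay below all controls, and Scap-deleted 3 lay among them. The means were 10595 ± 938 and 9264 ± 1447 (SD, n = 3), 87.0% of control with an interval of 69.9% to 108.3% (log2 difference -0.20, SE 0.14, limma adjusted p = 0.899, exact two-sided permutation p = 0.2). The second probe set, 1423345_at, read 88.9%. Without both arrays numbered 3 the log2 difference was -0.29 (limma adjusted p = 0.681), and it was -0.14 without Scap-deleted 1 and also without Scap-deleted 2.

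**Figure D2:**
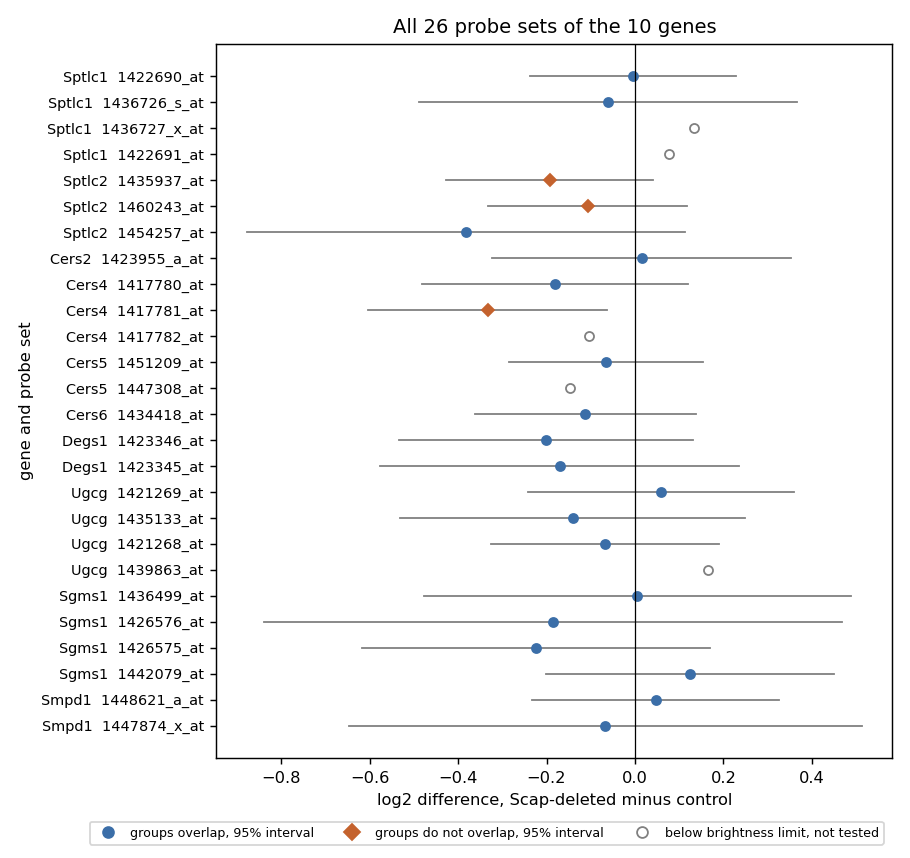
Log2 difference, Scap-deleted minus control, of all 26 probe sets of the 10 genes, with 95% intervals from limma for the 21 above the brightness limit. Diamonds mark the 3 probe sets, 2 of Sptlc2 and 1 of Cers4, whose groups do not overlap.

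Ceramide leaves for complex lipids through Ugcg, which adds the glucose from which most glycosphingolipids grow, and Sgms1, which transfers phosphocholine in the Golgi to make sphingomyelin. Ugcg read 2328, 2295 and 2023 in controls and 2469, 2483 and 1996 in Scap-deleted lungs. The arrays numbered 3 were the lowest of both groups, and the gene stood at 104.2% of control (interval 85.6% to 126.8%). Its direction was not the same in all probe sets, since 1435133_at read 90.7% and 1421268_at 95.4%, and the mean of the 3 above the limit gave a log2 difference of -0.050.

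Sgms1 read 7266, 6609 and 9952 in controls and 6280, 8150 and 9432 in Scap-deleted lungs. The arrays numbered 3 were the highest of both groups, and within-group spread was the widest of the 10 genes (SD 0.30 on the log2 scale, where the median of all genes tested was 0.15). Means were 7942 ± 1771 and 7954 ± 1585 (SD, n = 3), 100.3% of control with an interval of 72.6% to 138.6%. Of its 4 probe sets, all above the limit, 1426576_at read 88.0%, 1426575_at 85.7% and 1442079_at 109.0%. None of these passed the test over probe sets, where the smallest of the 4 adjusted p-values was 0.954. Array 3 of the controls was also high on 1426576_at, at 9702 against 5389 and 4667.

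Smpd1, the lysosomal enzyme that degrades sphingomyelin, read 4303, 4006 and 4979 in controls and 4420, 4384 and 4882 in Scap-deleted lungs. All 3 Scap-deleted arrays lay within the range of the controls, and the gene stood at 103.3% of control with an interval of 86.1% to 123.9%. Its dimmer probe set 1447874_x_at, of a type that can read related transcripts too, stood at 95.5%.

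Set by sample rather than by gene, the 10 members differed little between arrays. The median member lay -0.010, -0.053 and 0.032 log2 units from its control mean in controls 1 to 3, and -0.087, -0.053 and -0.0096 in Scap-deleted 1 to 3, so the groups overlapped. Samples of the same number were also compared. Sptlc2, Cers4 and Degs1 were lower in the Scap-deleted sample in 3 of 3 pairs and no member was higher in all 3, where 15.3% of all genes tested were lower and 15.6% higher in every pair. For Degs1 the Scap-deleted sample read 75.7%, 88.4% and 98.5% of its control in pairs 1 to 3, for Sptlc2 82.4%, 85.1% and 95.5%, and for Cers4 90.7%, 80.9% and 93.6%. With the replicate number as a block limma called 0 members, and the smallest adjusted p was 0.641, for Sptlc2. At an unadjusted p of 0.05 the blocked fit gave 0 members, where 4.52% of all genes were lower and 4.18% higher.

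The rest of the pathway was taken from a list of 57 gene symbols, of which 51 were named by at least 1 probe set and 37 were bright enough to test. Limma called 0 of the 37 in either direction. At an unadjusted p of 0.05, 2 were lower and 1 higher (3.04% and 2.88% of all genes tested were), and the median log2 difference was -0.013. With the replicate block it was 2 lower and 0 higher. Groups did not overlap in 3 genes, all with Scap-deleted lower, against 5.72% of all genes tested lower and 6.11% higher.

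Among the regulators of the first step, Ormdl1, a membrane protein that restrains serine palmitoyltransferase, read 2334, 2761 and 2034 in controls and 1840, 1711 and 1597 in Scap-deleted lungs. Every Scap-deleted array was below every control, and the geometric mean was 72.7% of the control level (log2 difference -0.46 with an SE of 0.13, exact two-sided permutation p = 0.1, limma unadjusted p = 0.00909 and adjusted p = 0.731). Among enzymes that act on glycosphingolipids, St3gal5, which makes the ganglioside GM3, read 3133, 2876 and 3227 in controls and 2657, 2032 and 2426 in Scap-deleted lungs. The groups did not overlap, with a level 76.7% that of controls (log2 difference -0.38 with an SE of 0.12, exact permutation p = 0.1, limma unadjusted p = 0.0154 and adjusted p = 0.739), although its other probe set read 95.9%. B4galt6, a lactosylceramide synthase, stood at 118.4%, with its second probe set at 89.5%.

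Sphingosine 1-phosphate, the signalling product of ceramide breakdown, is removed by a lyase and by phosphatases. The lyase Sgpl1 read 2702, 3065 and 2601 in controls and 2198, 2462 and 2554 in Scap-deleted lungs, with no overlap, at 86.3% of control (limma adjusted p = 0.865). Its other probe set, 1415893_at, read 93.7% with overlap of the groups. The phosphatase Sgpp1 stood at 131.5% (log2 difference 0.40, SE 0.16, exact permutation p = 0.2, limma unadjusted p = 0.0381, 0.0586 with the replicate block, and adjusted p = 0.808), while its other probe sets read 109.6% and 89.9%. The exporter Spns2 read 85.2%. Cerk, the ceramide kinase, read 113.4%, the neutral sphingomyelinase gene Smpd4 118.5% (its other probe sets 100.2%, 124.4% and 93.0%), the ceramide transfer protein gene Cert1 114.7% (its next brightest probe sets 85.3% and 90.8%), and Elovl1, which elongates acyl chains for very-long-chain sphingolipids, 87.6%. None of these passed the test.

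**Figure D3:**
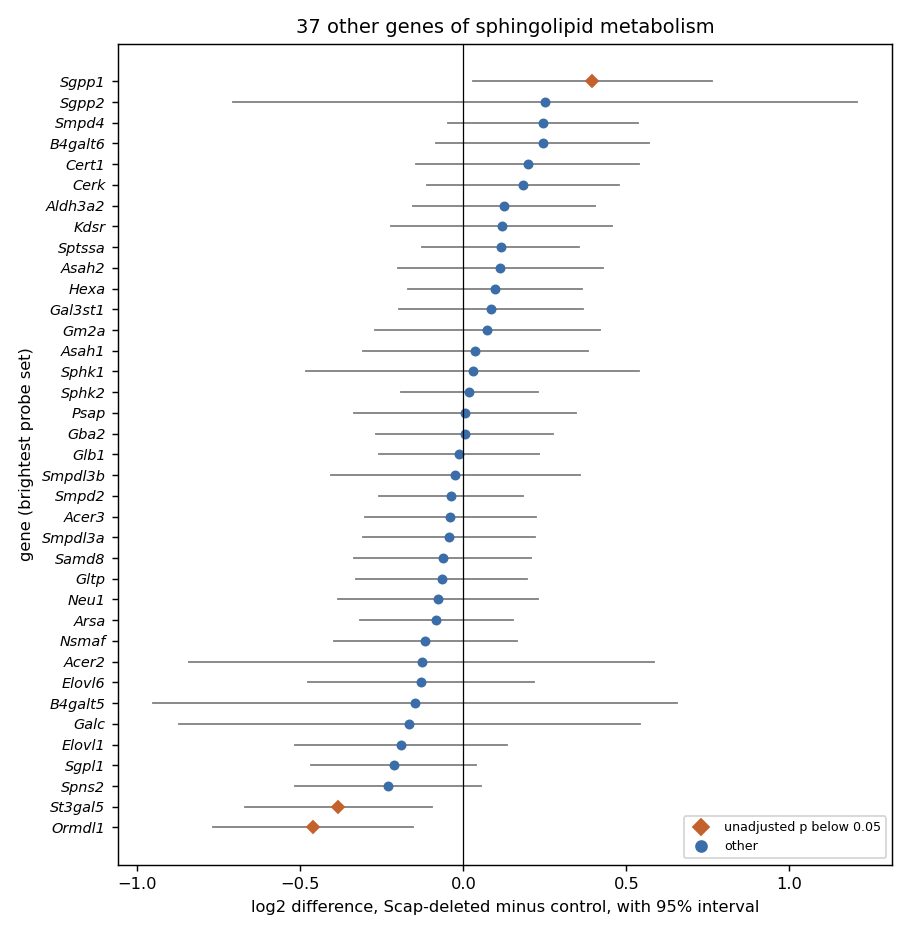
Log2 difference with 95% interval of the 37 tested genes of sphingolipid metabolism outside the 10 enzymes. Diamonds mark the 3 genes with an unadjusted p below 0.05, and none passed after adjustment over all genes tested.

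The member values were recomputed with other scalings, filters, probe set rules and subsets of arrays. Sptlc2, Cers4, Cers5, Cers6 and Degs1 had negative log2 differences in all 16 alternatives, Degs1 between -0.33 and -0.14 and Sptlc2 between -0.26 and -0.15. Sptlc1, Cers2, Ugcg, Sgms1 and Smpd1 took either sign, and 0 of the 10 genes passed the test in any alternative.

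**Figure D4:**
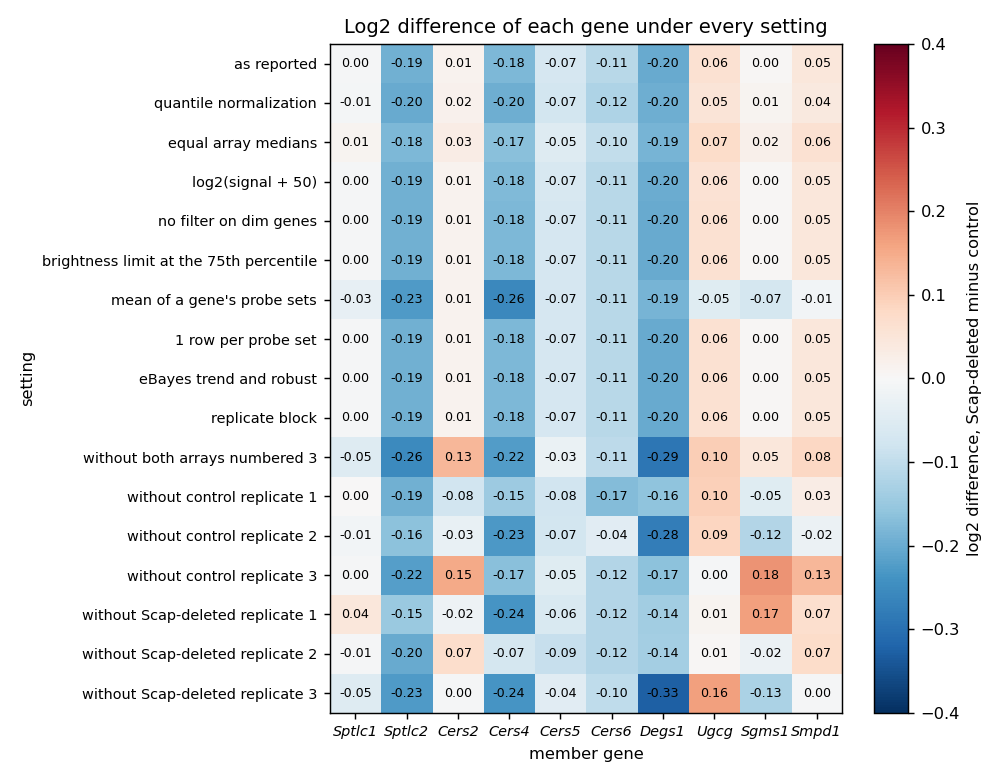
Log2 difference of each of the 10 genes as reported and under each of the 16 alternatives, with colour showing the same value as the printed number. The columns of Sptlc2, Cers4, Cers5, Cers6 and Degs1 are negative throughout, and that of Sgms1 runs from -0.13 to 0.18. Settings that change only which genes or probe sets are tested, the variance model or the block repeat the reported values.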

How the data were processed

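Biotin-labelled RNA of 6 whole-lung samples was read on MOE430 V2 arrays, per the labels' protocols. The authors deposited linear intensity values. The submitters' processing notes name RMA, but these values are linear and their quantiles differ between arrays. With 2% trimmed off both ends every array has a mean of 1500, so a common scaling is likely, and its software and any background step are not given in the sources used here. Groups and replicate numbers came from the titles. The log2 of the signal was taken with no pseudocount, 64 control probe sets were left out, and gene names came from the platform annotation. Each gene's brightest probe set was tested with limma 3.58.1 in R 4.3.3 (lmFit, eBayes, Scap-deleted minus control, no covariate) with Benjamini-Hochberg adjustment over 10972 genes. A fit over 22518 probe sets gave the values of further probe sets. Steps were tested on simulated data. The number of arrays limits precision.

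The members and lists were chosen with earlier results of these data known. The genes named were all members, Scap, Scd1 and Fasn as references, and the 10 tested genes of smallest p from the wider list. Single marker genes and Gm2a were named besides. Insig1, another planned reference gene for SREBPs, read 40.5% of control with no overlap of the groups (limma adjusted p = 0.271). Deviations from group means correlated at 0.17, 0.20 and 0.43 between same-numbered samples, each over the 0.1 set for pairing. The fit reported has no block, and a second fit blocked by replicate number is cited for the bounds of the member intervals and where a count or call moved. Control 2 with Scap-deleted 1 reached 0.18.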

Additional observations from a re-analysis of the deposited data

How the results depend on the processing

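The count of 0 members called held in all 16 alternatives, and so did the 0 of the wider list. The count of genes called over all genes tested, 1 as reported, was 0 with no filter on dim genes, with the brightness limit at the 75th percentile, with 1 row for each probe set, with eBayes trend and robust settings, with the replicate block and without both arrays numbered 3, and 0 to 1 when single arrays were left out, where the 1, without Scap-deleted replicate 2, was Scd1, a lower gene, and not the higher gene called as reported. The cause was not tested. The replicate block changed no call of a member. The median log2 difference of the members was -0.077 to -0.026 when single arrays were left out. Of 160 member values, 17 changed sign, in Sptlc1, Cers2, Ugcg, Sgms1 and Smpd1. The 160 include the settings that could not change a member's log2 difference. A member had an unadjusted limma p below 0.05 in 3 alternatives, 1 each with the limit at the 75th percentile, with trend and robust settings and without Scap-deleted replicate 3. Averaging the probe sets of a gene gave -0.050 for Ugcg, -0.070 for Sgms1, -0.010 for Smpd1 and, in the wider list, -0.057 for Cert1, and equal array medians gave 0.011 for Sptlc1. Leaving out single arrays gave -0.077 to 0.15 for Cers2, -0.13 to 0.18 for Sgms1, -0.023 to 0.13 for Smpd1, -0.051 to 0.045 for Sptlc1 and -0.0046 to 0.16 for Ugcg. For probe sets below the brightness limit no signal over background is known.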

Other observations

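Gm2a, the GM2 activator that lifts gangliosides to the lysosomal enzyme, was chosen after its values were seen. Its dimmer probe set 1416188_at read 754, 809 and 891 in controls and 1111, 1233 and 1497 in Scap-deleted lungs, 155.7% of control with no overlap (exact two-sided permutation p = 0.1, limma unadjusted p = 0.00242 and adjusted p = 0.741 over probe sets). Its brightest probe set read 105.2% with overlap, so the probe sets of this gene disagree.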
